A study of Homo sapiens with 4 samples.

Results

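The genes described here encode 58 splicing proteins: 12 serine/arginine-rich (SR) proteins, 4 SR-related proteins, 24 heterogeneous nuclear ribonucleoproteins (hnRNPs, with SYNCRIP and the PTBP family counted among them) and 18 spliceosome factors. They were taken by symbol from the authors' deposited table, which lists a log fold change for each of 39745 sequence accessions, of which 22411 matched a RefSeq gene symbol. All 58 were found, among 19468 named genes. The 58 genes had 71 transcript records, of which 70 were mRNA records and 1 was a noncoding record. A gene with 2 records, as for 13 of the 58, was given their mean.

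The cells were MDA-LM2, a human breast cancer line selected in mice from MDA-MB-231 for metastasis to the lung. They were transfected with Lipofectamine and either an siRNA against TARBP2 or a control siRNA, and total RNA was taken 48 hours later and hybridised to Illumina expression BeadChips. There were 4 arrays: 1 for each of 2 independent TARBP2 siRNAs, which formed the knockdown group, and 2 for the control siRNA, which the series' design text calls mock transfection. Whether the controls were separate cultures is not stated, and their spread, and any p-value resting on it, may be technical.

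Splicing removes introns in steps that these proteins share out. The U1 small nuclear ribonucleoprotein (snRNP) finds the 5′ splice site. SF1 and the U2AF pair find the branch point and the 3′ splice site. The SF3A and SF3B complexes anchor the U2 snRNP to the branch point, and the U5 protein PRPF8 later lies at the catalytic centre. SR proteins carry RNA-recognition motifs and a tail rich in arginine and serine, and usually promote the use of an exon by binding enhancers inside it, whereas hnRNPs often bind silencers and repress exons. Many SR and hnRNP genes limit their own mRNA through unproductive splice forms that are sent to nonsense-mediated decay. TARBP2, the protein depleted here, binds double-stranded RNA, is a partner of Dicer, and has in published work been tied to the retention of introns and the decay of transcripts it binds.

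The values rest on the scale of the authors' deposited table. Its log base is unstated and is read here as log2, its link to the single arrays could not be rebuilt, and it carries no replicate error. A gene was counted as above or below when its value passed 0.2 either way, 0.2 being the bound of the class of up-regulated records per the authors' deposited table and -0.2 its mirror. These counts are descriptions and not tests. TARBP2 itself, the targeted gene, stood at -0.78 per the authors' deposited table, with 121 genes lower. That value is the mean of 2 records, at -0.98 and -0.58.

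On the arrays, between 19411 and 21639 of 47321 probes were detected. Probes could not be tied to genes from the files used here, so no splicing gene could be read array by array, and the markers of the cell line could not be checked by level. Of 21075 probes tested between knockdown and control, 0 passed (0%, limma, smallest adjusted p = 0.805), with 815 at an unadjusted p under 0.05. The largest spread was between the TARBP2 siRNAs themselves, whose log2 differences had an SD of 0.852 over probes, against 0.250 between the controls. TARBP2 siRNA 1 stood apart from the rest, with SDs of 0.805 and 0.799 from the controls, where TARBP2 siRNA 2 had 0.384 and 0.395. Its raw 75th percentile was 327.1, against 228.8 to 252 on the other arrays. Leaving out TARBP2 siRNA 1 gave 4479 probes past the test and leaving out TARBP2 siRNA 2 gave 12035, where the lone array is assumed to vary like the controls. The weight of each siRNA in the values of the splicing genes is therefore unknown.

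Among the 58 genes, more regulators of splice site choice lay below the bounds than above, and more spliceosome factors lay above than below. Across the 58 genes, 17 lay below -0.2 per the authors' deposited table (29.3%), beside 12.1% of all named genes, and 9 lay above 0.2 (15.5%), beside 13.1% of all named genes. The median of the 58 genes was -0.06 per the authors' deposited table, beside 0.00 for all named genes. Of the 40 SR proteins, SR-related proteins and hnRNPs, 15 lay below and 3 above per the authors' deposited table. Of the 18 spliceosome factors, 2 lay below and 6 above per the authors' deposited table. The difference between these classes was not tested, since genes of 1 contrast are not replicates. The classes were also drawn up with results of these data known. Lists of other splicing genes did not all divide this way. The 17 other Sm, LSm and U2 proteins had 6 below and 2 above, and 41 other regulators had 6 below and 5 above. The 23 proteins of the tri-snRNP, the Prp19 complex and the catalytic step had 4 below and 6 above per the authors' deposited table.

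The share past the bounds went with detection on the arrays. In the authors' normalized array values, 55.9% of the 17701 probes detected on all 4 arrays had a mean log2 difference past 0.2 either way, against 15.4% of the 23002 probes detected on none. Of the probes detected on all 4 arrays, 28.8% lay below -0.2 and 27.1% above 0.2. Of the splicing genes, 29.3% lay below and 15.5% above per the authors' deposited table, counted over genes and not probes. The link of those values to the arrays could not be rebuilt, so 0.2 may not be the same bound on both scales. Splicing genes are widely transcribed, and the authors' deposited table gives no signal level by which to set them beside genes of like signal. Whether the 44.8% of splicing genes past either bound per the authors' deposited table goes with their level was not tested. In RNA from whole cultures, a change in the cells present and a change in RNA per cell cannot be told apart.

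**Figure D1:**
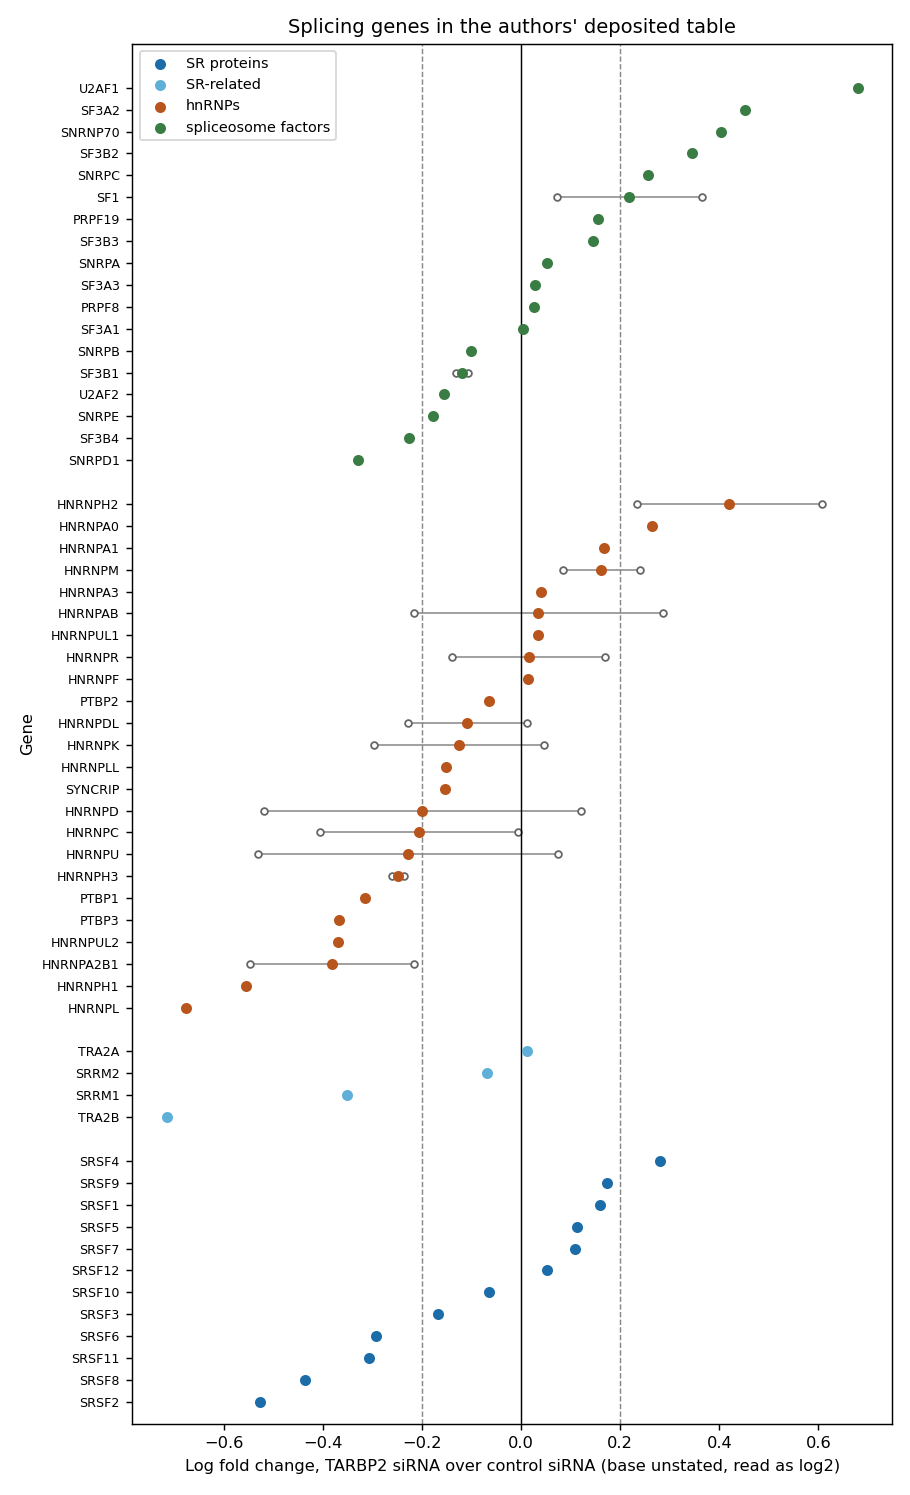
Log fold change (horizontal axis, read as log2) of each of the 58 splicing genes (vertical axis), by class, per the authors' deposited table. Filled points are gene values, open points joined by a line are the 2 records of a gene, and dashed lines mark 0.2 and -0.2. TRA2B at -0.71 and U2AF1 at 0.68 are the ends of the range.

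The SR proteins split evenly about 0, near the split of all named genes, with 9930 over 0 and 9538 under it. Of the 12, 4 lay below -0.2 (33.3%) and 1 above 0.2 (8.33%) per the authors' deposited table, beside 12.1% and 13.1% of all named genes. The median of the SR proteins was -0.01. SRSF2, also known as SC35 and a classic component of nuclear speckles, was the lowest SR protein per the authors' deposited table at -0.53, with 539 of all named genes lower. SRSF8, a retrogene relative of SRSF2, followed at -0.44 per the authors' deposited table. The pair derive from 1 ancestral sequence, so probes for one may also detect the other, which was not tested. SRSF11 stood at -0.31 and SRSF6 at -0.29 per the authors' deposited table.

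On the other side SRSF4 stood at 0.28 per the authors' deposited table and was the only SR protein past 0.2. SRSF4, SRSF5 and SRSF6 form a closely related group with a pair of RNA-recognition motifs, and they spread over 0.28, 0.11 and -0.29 per the authors' deposited table. SRSF1, an enhancer-binding SR protein with oncogenic activity in breast epithelium, stood at 0.16 per the authors' deposited table, next to its nearest relative SRSF9 at 0.17. SRSF3 and SRSF7, which also serve as adaptors for mRNA export, stood at -0.17 and 0.11 per the authors' deposited table. SRSF10, known as a repressor of splicing when dephosphorylated in heat shock, stood at -0.07 and its relative SRSF12 at 0.05 per the authors' deposited table. Every SR gene had 1 record, so none of these values has a second record to set beside it.

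TRA2B, which activates exons with GAA-rich enhancers, was the lowest of all 58 genes at -0.71 per the authors' deposited table, with 196 named genes lower. Its paralog TRA2A, which binds the same kind of enhancer, stood at 0.01 per the authors' deposited table. The nuclear matrix coactivator gene SRRM1 stood at -0.35 per the authors' deposited table, while SRRM2, a scaffold of nuclear speckles, stood at -0.07. Thus 2 of the 4 SR-related genes lay below -0.2 and 0 above 0.2 per the authors' deposited table, with a median of -0.21. Of all named genes, 12.1% lay below and 13.1% above. TRA2B and SRRM1 each had 1 record.

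Among the hnRNPs, 9 of 24 lay below -0.2 (37.5%) and 2 above 0.2 (8.33%) per the authors' deposited table. All named genes had 12.1% below and 13.1% above. The median of the hnRNPs was -0.14. HNRNPL, which binds CA repeats, stood lowest at -0.68 per the authors' deposited table, with 238 named genes lower. Its paralog HNRNPLL, known for CD45 splicing in lymphocytes, stood at -0.15 per the authors' deposited table. HNRNPH1 and HNRNPH2, which encode nearly identical binders of G-rich tracts, had values of opposite sign per the authors' deposited table, -0.55 and 0.42. The related HNRNPH3 stood at -0.25 and HNRNPF at 0.01 per the authors' deposited table, so this family of 4 ran across most of the range of the hnRNPs.

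The polypyrimidine tract-binding proteins were all under 0, as were 9538 of the 19468 named genes. PTBP1, the broadly expressed repressor of exons with pyrimidine-rich borders, stood at -0.32 per the authors' deposited table and its relative PTBP3 at -0.37. PTBP2, the neuronal form whose own mRNA PTBP1 is known to hold down through exon skipping, stood at -0.06 per the authors' deposited table. In the HNRNPU family, HNRNPUL2 stood at -0.37 and HNRNPUL1 at 0.03 per the authors' deposited table. HNRNPU, also called scaffold attachment factor A, stood at -0.23 per the authors' deposited table, as the mean of 2 records of opposite sign.

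In the A group, HNRNPA2B1 stood at -0.38 per the authors' deposited table, with both records under -0.2, at -0.55 and -0.22. HNRNPA1, the most studied antagonist of SR proteins, stood at 0.17 per the authors' deposited table, HNRNPA3 at 0.04 and HNRNPA0 at 0.26. HNRNPC, which covers uridine tracts and keeps Alu elements out of mRNA, lay just past the bound at -0.21 per the authors' deposited table, and HNRNPD, also known as AUF1 and a factor of AU-rich mRNA decay, lay just inside it at -0.20 (-0.1988). The relatives of HNRNPD stood at -0.11 (HNRNPDL) and 0.03 (HNRNPAB) per the authors' deposited table. The other hnRNP genes lay within the bounds per the authors' deposited table, with HNRNPK, a binder of C-rich tracts, at -0.12, SYNCRIP at -0.15, its relative HNRNPR at 0.02 and HNRNPM at 0.16.

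**Figure D2:**
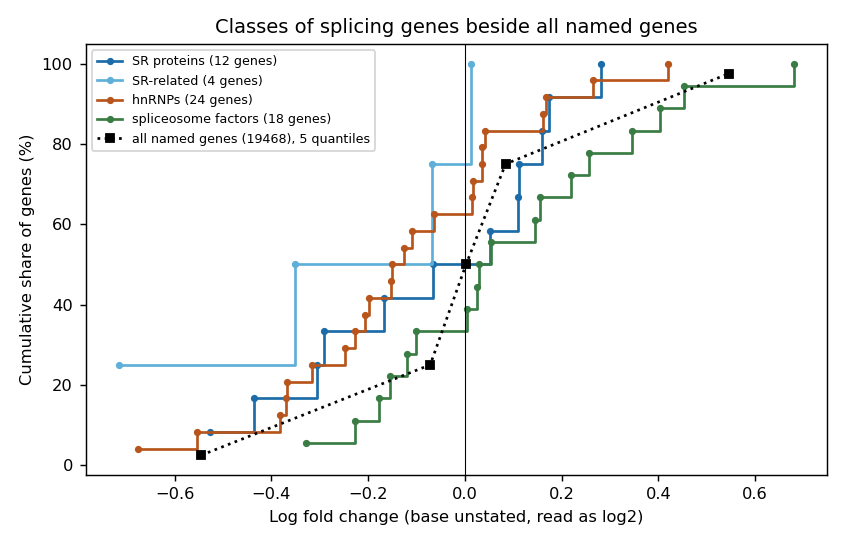
Cumulative share of genes (vertical axis, percent) against log fold change (horizontal axis, read as log2) for the 4 classes per the authors' deposited table, with 5 quantiles of all 19468 named genes as a dotted line. The medians are 0.04 for the spliceosome factors, -0.01 for the SR proteins, -0.14 for the hnRNPs and -0.21 for the SR-related genes.

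The spliceosome factors are given by step of the reaction. For the first recognition of the 3′ splice site, U2AF1, the small subunit that contacts the AG dinucleotide, was the highest of the 58 genes at 0.68 per the authors' deposited table, with 236 named genes higher. Its partner U2AF2, the large subunit that binds the pyrimidine tract, stood at -0.16 per the authors' deposited table. SF1, the branch point binding protein, stood at 0.22 per the authors' deposited table, with records at 0.36 and 0.07. U2AF1 had 1 record, and which RNA its value measures was not tested.

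The 3 proteins particular to the U1 snRNP were all above 0, as were 9930 of the 19468 named genes. SNRNP70 stood at 0.40, SNRPC at 0.26 and SNRPA at 0.05 per the authors' deposited table. Of the 7 U2 proteins, SF3A2 stood at 0.45 and SF3B2 at 0.34 per the authors' deposited table, and SF3B4 was the only one below -0.2, at -0.23. SF3B3 stood at 0.15, SF3A3 at 0.03 and SF3A1 at 0.00 per the authors' deposited table. SF3B1, the subunit that cradles the branch point and is often mutated in cancers, stood at -0.12 per the authors' deposited table, with its records close together at -0.11 and -0.13.

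Of the ring of Sm proteins at the core of each snRNP, the 3 among the 58 genes were all under 0. SNRPD1 stood at -0.33, SNRPE at -0.18 and SNRPB at -0.10 per the authors' deposited table. Of all 19468 named genes, 9538 were under 0. In the list of other splicing genes, SNRPG stood at -0.22, SNRPD3 at -0.05, SNRPF at -0.05 and SNRPN at -0.04 per the authors' deposited table. The ring protein SNRPD2 stood at 0.05, as the mean of records at -0.04 and 0.14, so not all of the ring was under 0. PRPF19, a ubiquitin ligase that gives its name to a spliceosomal complex, stood at 0.16 per the authors' deposited table and PRPF8 at 0.03. By step, 2 of 3 genes of 3′ splice site recognition and 2 of 3 U1 genes lay above 0.2 per the authors' deposited table. So did 2 of 7 U2 genes, 0 of 3 Sm genes and 0 of 2 in the last pair, beside 13.1% of all named genes.

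Where a gene had 2 records, they often stood apart. Over the 13 such genes the median span between records was 0.33 per the authors' deposited table. It was 0.13 over the 2500 named genes with at least 2 records. Those genes were not limited to a like signal level, so whether the wider span goes with level was not tested. The records had opposite signs for 6 of the 13 genes (46.2%) per the authors' deposited table, beside 46.0% of the 2500. HNRNPD had the widest span per the authors' deposited table, from -0.52 to 0.12, followed by HNRNPU from -0.53 to 0.08. HNRNPAB ran from -0.22 to 0.29, HNRNPK from -0.30 to 0.05, HNRNPR from -0.14 to 0.17 and HNRNPDL from -0.23 to 0.01 per the authors' deposited table, the last of these for its noncoding record.

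Other genes kept 1 sign across their records. HNRNPC had -0.41 and -0.01, HNRNPH2 had 0.61 and 0.23, and HNRNPM had 0.24 and 0.08 per the authors' deposited table. The records of HNRNPH3, at -0.26 and -0.24, and of SF3B1 differed least per the authors' deposited table. The median span of 0.33 per the authors' deposited table is wider than the distance of 0.2 from 0 to the bound. The 71 records compare with 365 curated transcripts that RefSeq now lists for the 58 genes, so most splice forms, such as 52 listed for HNRNPH1 and 48 for SRRM1, had no record of their own. Unproductive forms could not be told from productive ones.

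**Figure D3:**
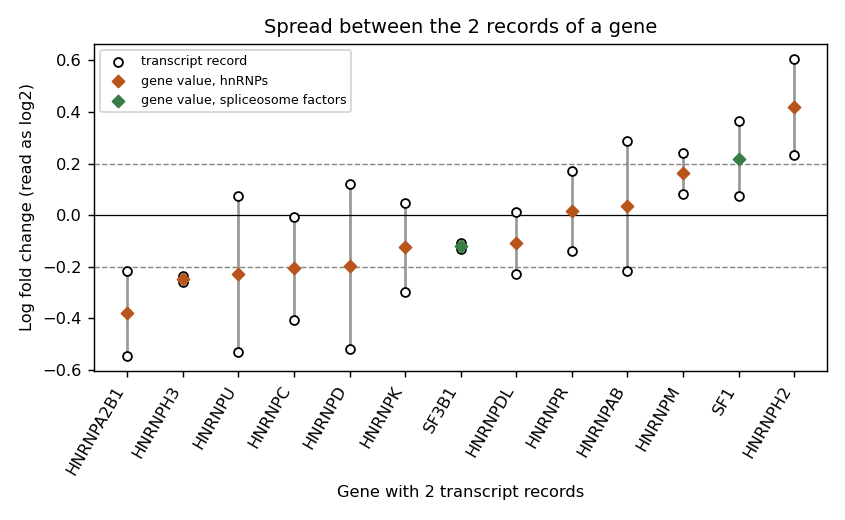
Log fold change (vertical axis, read as log2) of the records of the 13 splicing genes with 2 records (horizontal axis) per the authors' deposited table. Open circles are records, diamonds are gene values and dashed lines mark 0.2 and -0.2. HNRNPD and HNRNPU span 0.64 and 0.61, HNRNPH3 and SF3B1 0.02 each.

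The wider machinery, listed beside these genes, also went both ways. Of 104 other splicing genes 103 were measured, with a median of -0.03 per the authors' deposited table. Of these, 22 lay below -0.2 (21.4%) and 17 above 0.2 (16.5%), beside 12.1% and 13.1% of all named genes. In the 17 other Sm, LSm and U2 proteins, 6 lay below (35.3%) and 2 above (11.8%) per the authors' deposited table. LSM4 and LSM5 sit in the same rings, the cytoplasmic one of mRNA decay and the nuclear one on U6 RNA, and stood at 0.93 and -0.66 per the authors' deposited table. Of the 23 proteins of the tri-snRNP, the Prp19 complex and the catalytic step, 6 lay above (26.1%) and 4 below (17.4%). The U4/U6 proteins PRPF31 and PRPF4 stood at 0.55 and -0.64 and the Prp19 partner CDC5L at 0.51 per the authors' deposited table.

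Kinases that phosphorylate the arginine- and serine-rich tails had 2 of 8 below -0.2 and 0 above 0.2 per the authors' deposited table, CLK1 at -0.29 and CLK4 at -0.25. In the list of 41 other regulators, 6 lay below (14.6%) and 5 above (12.2%) per the authors' deposited table. These shares are close to the 12.1% and 13.1% of all named genes. The muscleblind gene MBNL1 stood at -0.63 per the authors' deposited table, with records from -1.09 to -0.0045, and KHDRBS1 (Sam68) at -0.52. ACIN1 stood at 0.63 and RALY, an hnRNP C relative, at 0.62 per the authors' deposited table. The 6 exon junction genes had 2 on either side (33.3% each) per the authors' deposited table. Among them CASC3 stood at 0.74 and the core helicase gene EIF4A3 at -0.41. Of the 8 genes of the U12-type spliceosome, which removes a minor class of introns, 2 lay above and 2 below per the authors' deposited table, with SNRNP35 at 0.37 and ZCRB1 at -0.36. The share past either bound was 37.9% for the 103 genes and 44.8% for the 58 per the authors' deposited table, beside 25.2% of all named genes.

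**Figure D4:**
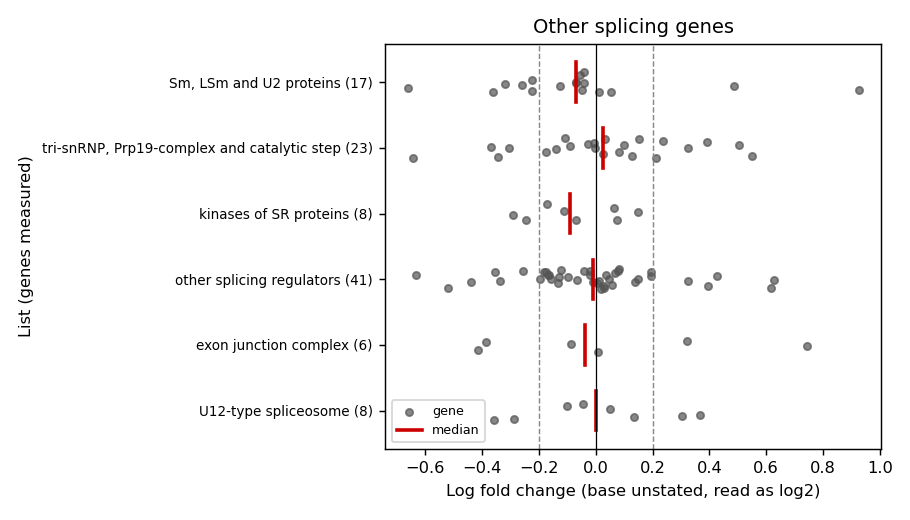
Log fold change (horizontal axis, read as log2) of 103 other splicing genes by list (vertical axis) per the authors' deposited table. Points are genes, spread at random within a row, red bars are list medians and dashed lines mark 0.2 and -0.2. LSM4 at 0.93 and LSM5 at -0.66 are the ends of the range.

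The sequence before the start sites was also read, with motifs chosen after earlier results of these data were known. Several short motifs were found at unlike shares in the classes, with no test of the differences. RefSeq promoters (GRCh38.p14) were matched by symbol for 53 of the 58 genes, all but SRSF2, TRA2A, HNRNPA1, SF3B3 and SNRPD1, and the 250 bases before the first listed start were read on both strands. CCGGAA, the core bound by ETS factors, was present for 10 of 16 spliceosome factors (62.5%) and 4 of 23 hnRNPs (17.4%). It was present for 2 of 11 SR proteins and 0 of 3 SR-related genes, beside 14.8% of 27305 genes. Of the 7307 genes with a GC content between 60.4% and 70.8%, the quartiles of the splicing genes, 23.9% held it. The splicing genes were not themselves limited to this range, so shares set beside these genes of like GC content are not fully matched. Of the spliceosome factors with CCGGAA, SNRPE, SNRPC, PRPF19 and SNRPB lay under the range and U2AF2 and SF3A1 over it. SF3A2, SF3B2 and SNRPC are shown as spliceosome genes above 0.2 that hold the motif, and U2AF1, TRA2B and HNRNPL as the genes farthest from 0, which do not. Capitals mark CCGGAA or its reverse complement TTCCGG, and each sequence reads 5′ to 3′ towards the start.
SF3A2, chr19:2236574-2236823, plus strand: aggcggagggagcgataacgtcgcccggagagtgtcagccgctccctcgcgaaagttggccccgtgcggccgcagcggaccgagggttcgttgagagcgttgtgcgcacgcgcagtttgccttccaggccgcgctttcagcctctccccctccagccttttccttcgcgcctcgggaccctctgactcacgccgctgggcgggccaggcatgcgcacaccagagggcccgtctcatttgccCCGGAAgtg
SF3B2, chr11:66052114-66052363, plus strand: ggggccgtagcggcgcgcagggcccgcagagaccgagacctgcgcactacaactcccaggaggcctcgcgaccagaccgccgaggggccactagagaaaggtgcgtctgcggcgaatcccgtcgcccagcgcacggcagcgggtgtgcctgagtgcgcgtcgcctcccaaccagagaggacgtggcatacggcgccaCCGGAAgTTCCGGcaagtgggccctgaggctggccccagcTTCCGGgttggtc
SNRPC, chr6:34757255-34757504, plus strand: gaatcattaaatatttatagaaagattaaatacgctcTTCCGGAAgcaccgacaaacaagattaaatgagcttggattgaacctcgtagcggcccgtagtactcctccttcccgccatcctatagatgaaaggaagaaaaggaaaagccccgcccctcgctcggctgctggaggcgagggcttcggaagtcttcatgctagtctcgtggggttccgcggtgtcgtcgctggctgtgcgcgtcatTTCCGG
U2AF1, chr21:43107571-43107820, minus strand: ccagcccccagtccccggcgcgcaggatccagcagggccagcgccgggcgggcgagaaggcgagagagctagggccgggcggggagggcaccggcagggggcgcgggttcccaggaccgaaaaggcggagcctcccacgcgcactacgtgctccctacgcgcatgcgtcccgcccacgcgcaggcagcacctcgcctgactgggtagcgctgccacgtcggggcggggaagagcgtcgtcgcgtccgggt
TRA2B, chr3:185938015-185938264, minus strand: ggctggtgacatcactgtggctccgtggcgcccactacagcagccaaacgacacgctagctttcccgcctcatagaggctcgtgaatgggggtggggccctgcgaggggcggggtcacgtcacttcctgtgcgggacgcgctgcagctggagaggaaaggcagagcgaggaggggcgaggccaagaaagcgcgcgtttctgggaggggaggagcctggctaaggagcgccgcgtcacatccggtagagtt
HNRNPL, chr19:38852348-38852597, minus strand: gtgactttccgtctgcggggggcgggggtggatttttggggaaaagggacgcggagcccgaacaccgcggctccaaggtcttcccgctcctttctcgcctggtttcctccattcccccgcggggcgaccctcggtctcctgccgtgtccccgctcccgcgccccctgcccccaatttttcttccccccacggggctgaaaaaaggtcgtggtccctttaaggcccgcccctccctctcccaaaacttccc

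The spliceosome factors with the motif were spread over the values. It was present for 3 of the 6 spliceosome factors above 0.2, 6 of the 9 within the bounds and the 1 with a promoter below -0.2. SF3B2 and SNRPC held 3 matches each and SF3A2 held 1, and the 3 matches of SNRPC include an overlapping pair on opposite strands. Among all splicing genes it was found for 4 of 9 above 0.2, 11 of 29 within and 1 of 15 below, and since most genes above were spliceosome factors, class and value are mixed in this count.

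Other motifs were searched in the same window. GGGCGG, the core of the SP1 site, was present for 35 of 53 splicing genes (66.0%), beside 42.3% of all genes and 66.5% of genes of like GC content. By class it was present for 19 of 23 hnRNPs (82.6%), 10 of 16 spliceosome factors (62.5%), 2 of 3 SR-related genes and 4 of 11 SR proteins (36.4%). The CCAAT box was present for 14 of 23 hnRNPs (60.9%), 4 of 16 spliceosome factors, 2 of 11 SR proteins and 1 of 3 SR-related genes, beside 33.0% of all genes and 32.1% of genes of like GC content. By value it was present for 9 of 15 splicing genes below -0.2, 9 of 29 within the bounds and 3 of 9 above 0.2, with hnRNPs making up most of the genes below. The TATA motif TATAAA was present for 6 of 53 splicing genes (11.3%), beside 11.1% of all genes and 3.38% of genes of like GC content. Of those 6 genes, SNRPC, SRSF11, HNRNPC and HNRNPD lay under the GC range of that set, and only HNRNPAB and SRSF3 within it. The shares of 11.3% and 3.38% are therefore not matched for GC content. The E-box CACGTG was present for 7 of 53 (13.2%), of which 6 were hnRNPs, beside 6.49% of all genes and 9.39% of genes of like GC content. TGACGTCA and TTTCGCGC were in 0 of the 53, beside 1.77% and 0.469% of all genes and 2.86% and 0.739% of genes of like GC content. The 250 bases had a median GC content of 65.6% and a median of 26 CpG dinucleotides for the splicing genes, beside 58% and 11 for all genes. A match describes letters in this window and does not show that a factor binds there.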

How the data were processed

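Total RNA of 4 MDA-LM2 samples was labelled with biotin and hybridised to Illumina BeadChips, per the labels' protocols. The deposited raw intensity values were not normalized, per the file headers, and each had a deposited detection score, a fraction from 0 to 1. The deposited normalized intensity values shared their quantiles across arrays. Software named in the submitters' processing notes is lumi, without a version. The deposited log fold changes, 1 per accession with a class of 0 or 1, come from the authors and were read here as log2 values. The log base, the joining of probes and the contrast's weights are not stated in the sources at hand.

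Accessions were matched without versions to RefSeq (GRCh38.p14), which gave a symbol to 56.4% of records. A gene's value was the mean over its records. Raw intensities were processed with neqc (offset 16), probes were kept if detected (p under 0.05) on 2 or more arrays, and groups were compared with lmFit and eBayes (limma 3.58.1, R 4.3.3, intensity trend, two-sided, Benjamini-Hochberg at 0.05). The limma step was run on simulated data with the same spread on every array and large planted changes. The arrays here differed in spread, so that run does not bear on the power of the test. With 2 arrays against 2, an exact permutation test cannot go under p = 0.333. Same-numbered arrays did not deviate together (correlation -0.0418 over probes), so the numbers were not treated as pairs.

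The 58 genes, the other lists and the motifs were chosen with earlier results of these data known. All 58 are named. Of the other lists, genes past 0.5 or -0.5 are named, or the 2 farthest from 0 where fewer passed. Planned protein features and the test of named probes were not run here. The promoters and their motifs were added after the data were seen.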

Additional observations from a re-analysis of the deposited data

How the results depend on the processing

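With a threshold of 0.1 in place of 0.2, 27 of the 58 splicing genes lay below and 17 above per the authors' deposited table, and with 0.5 there were 4 below and 1 above, which follows from the bound itself. The counts at 0.2 stayed within 1.5 times under the median of the records, the record farthest from 0, curated records alone and each distinct value counted once. The class medians kept their sign and moved by less than 0.13, the median span between the records of a gene, under these settings and relative to the median of all named genes. That of the SR proteins, at -0.01, is close to 0. With the record farthest from 0, 9 genes moved by more than this span, none with a change of sign. For HNRNPD the value was then -0.52, for HNRNPK -0.30 and for HNRNPAB 0.29 per the authors' deposited table, all past the bounds they had been within. HNRNPDL, at -0.23, and HNRNPM, at 0.24, also passed a bound, with smaller moves. The counts under this setting were 20 below and 11 above.

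The limma count of 0 probes was unchanged with the authors' normalized intensities, scaling to a common median, no filter on dim probes, detection on all 4 arrays, no trend, the robust option, and the replicate block (0 probes, smallest adjusted p = 0.339). Leaving out 1 array gave from 0 to 12035 probes, with 4479 without TARBP2 siRNA 1, 12035 without TARBP2 siRNA 2 and 0 without either control. The test of probes of splicing genes was not run. The deposited table holds no signal over background for its records.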

Other observations

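Named copies of the splicing genes had values of their own per the authors' deposited table. For HNRNPA1, which stood at 0.17, the transcribed pseudogenes HNRNPA1P10 and HNRNPA1P33 stood at 0.62 and 0.28 and the coding copy HNRNPA1L2 at 0.10 per the authors' deposited table. For HNRNPC, at -0.21, the copies HNRNPCL1 and HNRNPCL2 stood at 0.02 and -0.05 per the authors' deposited table. HNRNPA3P1 stood at -0.01, beside 0.04 for HNRNPA3, and U2AF1L4 at 0.19, beside 0.68 for U2AF1, per the authors' deposited table. Copies of this kind can share probes with their parent gene, and which RNA each value measures was not tested.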
